A study of Mus musculus with 6 samples.

Results

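The miR-148 and miR-152 family was measured in extracellular vesicles shed by apoptotic mouse osteoblasts, the cells that form bone. Every entry named miR-148a, miR-148b or miR-152, with any arm suffix, was taken, without regard to its values, from a table of RPM, in which the reads of an entry are scaled to a library total of 1000000. This gave 6 of the 1712 entries listed, the 3p arms mmu-miR-148a-3p, mmu-miR-148b-3p and mmu-miR-152-3p and their 5p arms (the prefix is left out below). The control group held 3 libraries from SIRT6f/f mice, which carry floxed Sirt6 alleles and no Cre in their label. The knockout group held 3 libraries from Prx1cre;SIRT6f/f mice, in which a Cre under the Prx1 enhancer, active in limb bud mesenchyme, acts on the same floxed alleles. Both groups were treated alike: osteoblasts were driven into apoptosis and kept for 48 h without serum before vesicles were pelleted from the cleared medium. The labels give neither the age of the mice nor the number of mice behind a library, so the spread between libraries may be technical. A p-value here therefore speaks of these libraries only. A limma p-value for a level rests on a spread shared by entries of like abundance, and hardly on the entry's own spread. Small RNA libraries do not measure the Sirt6 messenger RNA, so the deletion itself was not checked here.

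A miRNA is cut from a hairpin precursor, and the arm that is kept guides the Argonaute protein to messenger RNAs that pair with its seed, bases 2 to 8. The 3p arms of miR-148a, miR-148b and miR-152 share that seed and are known repressors of DNA methyltransferases, above all of Dnmt1, the enzyme that copies CpG methylation onto newly made DNA. In bone, miR-148a is known as a promoter of the formation of osteoclasts, the bone-resorbing cells. The targets themselves were not measured in these libraries.

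The 6 mature sequences are shown because the shared seed defines the family and the few bases outside it tell the members apart. All 6 entries had a RefSeq sequence (build GRCm38.p6), written here from 5′ to 3′ with bases 2 to 8 in capitals.
miR-148a-3p: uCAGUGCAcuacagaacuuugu
miR-148b-3p: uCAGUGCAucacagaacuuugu
miR-152-3p: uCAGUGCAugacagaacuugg
miR-148a-5p: aAAGUUCUgagacacuccgacu
miR-148b-5p: gAAGUUCUguuauacacucaggcu
miR-152-5p: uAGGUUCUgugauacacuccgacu
The 3p arms had the seed CAGUGCA in common, and no other mature mouse miRNA in the RefSeq table held it at bases 2 to 8. Differences are written as the base of the member named first, the position from the 5′ end, and the base of the other member. From miR-148a-3p to miR-148b-3p they were C9U and U10C, over 22 positions. From miR-148b-3p to miR-152-3p they were C10G and U20G, over 21 positions. From miR-148a-3p to miR-152-3p they were C9U, U10G and U20G. How mismatches were treated in alignment is not stated in the labels, so some exchange of reads between members this alike cannot be told apart from their true levels. The 5p arms of miR-148a and miR-148b shared the seed AAGUUCU, and that of miR-152 was AGGUUCU.

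The hairpins are shown with both mature arms in capitals, since arm use is described further on.
Mir148a: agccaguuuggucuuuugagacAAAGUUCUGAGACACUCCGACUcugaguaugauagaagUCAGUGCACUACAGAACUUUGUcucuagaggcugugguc
Mir148b: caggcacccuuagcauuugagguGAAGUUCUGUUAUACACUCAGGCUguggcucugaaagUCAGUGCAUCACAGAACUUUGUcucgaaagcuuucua
Mir152: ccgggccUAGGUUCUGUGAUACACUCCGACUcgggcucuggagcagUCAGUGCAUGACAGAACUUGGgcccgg
Mir148a lies on the minus strand of chromosome 6 (GRCm38, 51269812 to 51269910) and overlapped no annotated gene besides its own, with Nfe2l3 the nearest protein-coding gene, 162760 bases away. Mir148b lies on the plus strand of chromosome 15 (103285125 to 103285221), within an intron of Copz1. Mir152 lies on the plus strand of chromosome 11 (96850393 to 96850465), within an intron of Copz2. Both host genes encode a zeta subunit of the COPI coat of transport vesicles and lie on the same strand as their hairpin. The members therefore sit on 3 chromosomes and are not a genomic cluster.

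The libraries held 1352045 to 1838239 reads, as recovered from the steps of the RPM values, and 1 read was worth 0.544 to 0.740 RPM. Ordinary annotated miRNAs, the named entries outside a list of possible ribosomal or transfer RNA fragments, took 47.4% to 52.2% of the reads in the control libraries and 29.3% to 39.7% in the knockout libraries. Knockout replicate 3 stood apart with the 29.3%, and its unnamed entries took 62.8%. RPM is relative to all listed reads, so these shares move with the level of every miRNA described here. The members' 3p values are given with and without it.

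miR-152-3p was the leading member and rank 18 of 1528 annotated entries by mean RPM. Its level was 7863, 7997 and 7524 RPM in control replicates 1, 2 and 3, and 5806, 6165 and 2671 RPM in knockout replicates 1, 2 and 3. The groups did not overlap, and the lowest library by far was knockout replicate 3. miR-148a-3p, at rank 65, had 675, 629 and 719 RPM in the control libraries and 469, 463 and 254 RPM in the knockout libraries. Here too all 3 knockout libraries lay below all 3 control libraries. miR-148b-3p, at rank 79, had 391, 391 and 343 RPM in the control libraries and 354, 393 and 296 RPM in the knockout libraries. Its groups overlapped, and knockout replicate 2 was its highest library. Mature miRNAs are of nearly the same length, so these RPM levels were compared between members without a length correction; how well the library kit captures each sequence was not measured.

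The 5p arms were minor products. miR-152-5p had 107, 70.3 and 71.9 RPM in the control libraries and 51.6, 70.6 and 47.9 RPM in the knockout libraries, so that the groups overlapped at 1 knockout and 1 control library. miR-148b-5p had 1.44, 5.92 and 3.07 RPM in the control libraries and 2.49, 3.39 and 2.18 RPM in the knockout libraries, or 2 to 8 reads. miR-148a-5p had 2.16, 2.22 and 1.23 RPM in the control libraries and 2.49, 0 and 1.63 RPM in the knockout libraries, or at most 4 reads. If no read was seen, the listed 0 in knockout replicate 2 allows up to 1.69 RPM, the level of 3 reads in that library, counting error only. No entry stood at 1 read, so a listed 0 may also hide 1 read, and the bound would then be higher. Both of these arms were too shallow for a difference between groups to be detectable. The plot of RPM by library shows all 6 entries.

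**Figure D1:**
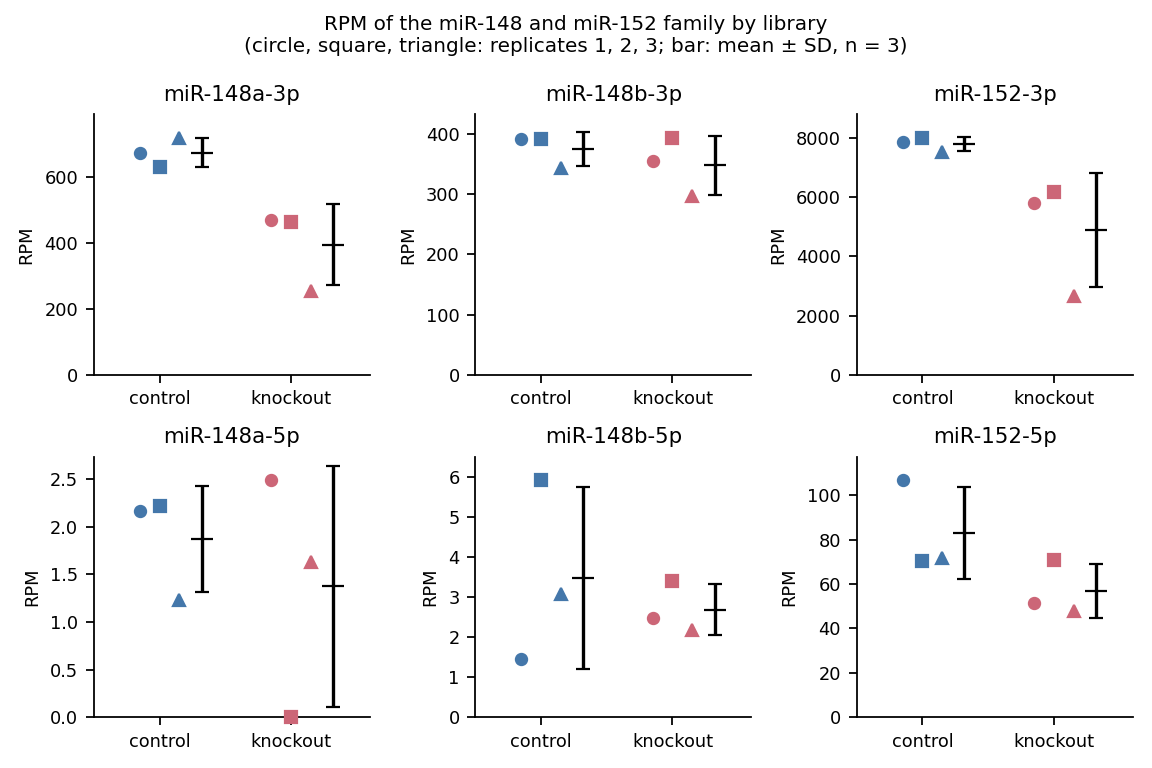
RPM of each family entry (y axis from 0, a scale of its own in each panel) in the 3 control and 3 knockout libraries, with replicates 1, 2 and 3 as circle, square and triangle and the mean ± SD as a bar. For miR-148a-3p and miR-152-3p every knockout library lies below every control library and replicate 3 is the lowest, whereas the groups overlap for miR-148b-3p and the 5p arms.

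In the control group the order of the levels was miR-152-3p (7795 ± 244 RPM, mean ± SD, n = 3 here and below), miR-148a-3p (675 ± 45.0), miR-148b-3p (375 ± 27.8), miR-152-5p (83.0 ± 20.6), miR-148b-5p (3.48 ± 2.26) and miR-148a-5p (1.87 ± 0.556). Neighbours in this order were apart in every control library except the last pair, miR-148b-5p and miR-148a-5p. In the knockout group the means kept the order, at 4881 ± 1922, 395 ± 122, 348 ± 48.9, 56.7 ± 12.2, 2.68 ± 0.630 and 1.37 ± 1.26 RPM. There miR-148a-3p and miR-148b-3p no longer differed beyond their spread: in knockout replicate 3 miR-148b-3p was the higher, at 296 against 254 RPM.

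The comparison of knockout with control asked which members differed between the genotypes. The Cre and the deletion of Sirt6 come together in the knockout libraries, so their effects cannot be told apart. In the knockout libraries the mean of miR-148a-3p was 0.586 and that of miR-152-3p 0.626 of the control mean, and that of miR-148b-3p was 0.928. The log2 fold change on the log2(RPM + 1) scale was -0.82 ± 0.29 (SE) for miR-148a-3p (limma adjusted p = 0.0706), -0.77 ± 0.31 for miR-152-3p (limma adjusted p = 0.114) and -0.11 ± 0.29 for miR-148b-3p (limma adjusted p = 0.836). The 5p arms had -0.53 ± 0.34 for miR-152, -0.44 ± 0.76 for miR-148a and -0.17 ± 0.72 for miR-148b. Each SE rests on the spread shared by entries of like abundance. It was 0.31 for miR-152-3p and 0.29 for miR-148b-3p, although their log2 SDs in the knockout libraries were 0.67 and 0.21. All 6 entries passed the filter on low values (at least 1 RPM in at least 3 libraries), and 0 of 6 passed the test in either direction, beside 4.85% of the 1114 entries tested. At an unadjusted limma p under 0.05, 2 of the 6 were lower, miR-148a-3p and miR-152-3p, and 0 were higher, beside 14.6% and 5.39% of tested entries. The groups did not overlap for the same 2 of 6, beside 19.3% of tested entries that were lower without overlap (0 of 6 were higher without overlap, beside 6.28%).

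Abundant miRNAs were lower in general. Among 265 ordinary annotated miRNAs at a mean of 10 RPM or more, 53.6% were lower without overlap and 80.8% had a value below 0, beside 60.1% of all tested entries, with a median of -0.60. The median was -0.48 over the 6 family entries and -0.27 over all entries tested. Of those 265 miRNAs, 76 had a log2 fold change below that of miR-148a-3p and 93 below that of miR-152-3p, while 56 lay above that of miR-148b-3p. The plot of fold change against abundance shows where the members lie among all entries.

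**Figure D2:**
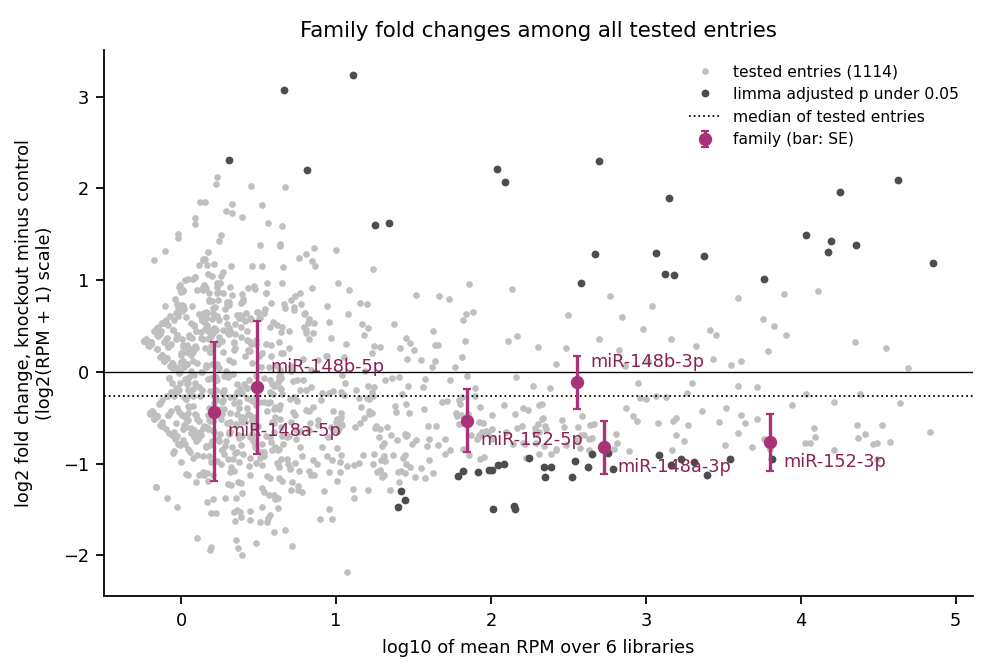
Log2 fold change (knockout minus control, log2(RPM + 1) scale) against the log10 of mean RPM for all 1114 tested entries, with entries past the limma threshold in dark grey, the family with its SE, and the median of tested entries as a dotted line. miR-148a-3p and miR-152-3p lie at -0.82 and -0.77 among many entries that are lower, and miR-148b-3p lies at -0.11.

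The values of the 3p arms depended on knockout replicate 3. Without it the log2 fold change was -0.53 for miR-148a-3p (limma adjusted p = 0.0687) and -0.38 for miR-152-3p (limma adjusted p = 0.269), and -0.0037 for miR-148b-3p (limma adjusted p = 0.996). The median of the ordinary annotated miRNAs moved with them, from -0.60 to -0.39. When entries under a mean of 10 RPM were left out, miR-148a-3p passed (limma adjusted p = 0.0385) and miR-152-3p did not (limma adjusted p = 0.0535). After rescaling to ordinary annotated miRNAs the values were -0.34 for miR-148a-3p, -0.29 for miR-152-3p and 0.36 for miR-148b-3p, with limma adjusted p of 0.430, 0.631 and 0.343. That rescaling moved the median of all entries from -0.27 to 0.08 and that of the ordinary annotated miRNAs from -0.60 to -0.14. The sign of miR-148b-3p was thus set by the scaling, while miR-148a-3p and miR-152-3p stayed below 0 under all 17 alternatives tried, as the plot of settings shows.

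**Figure D3:**
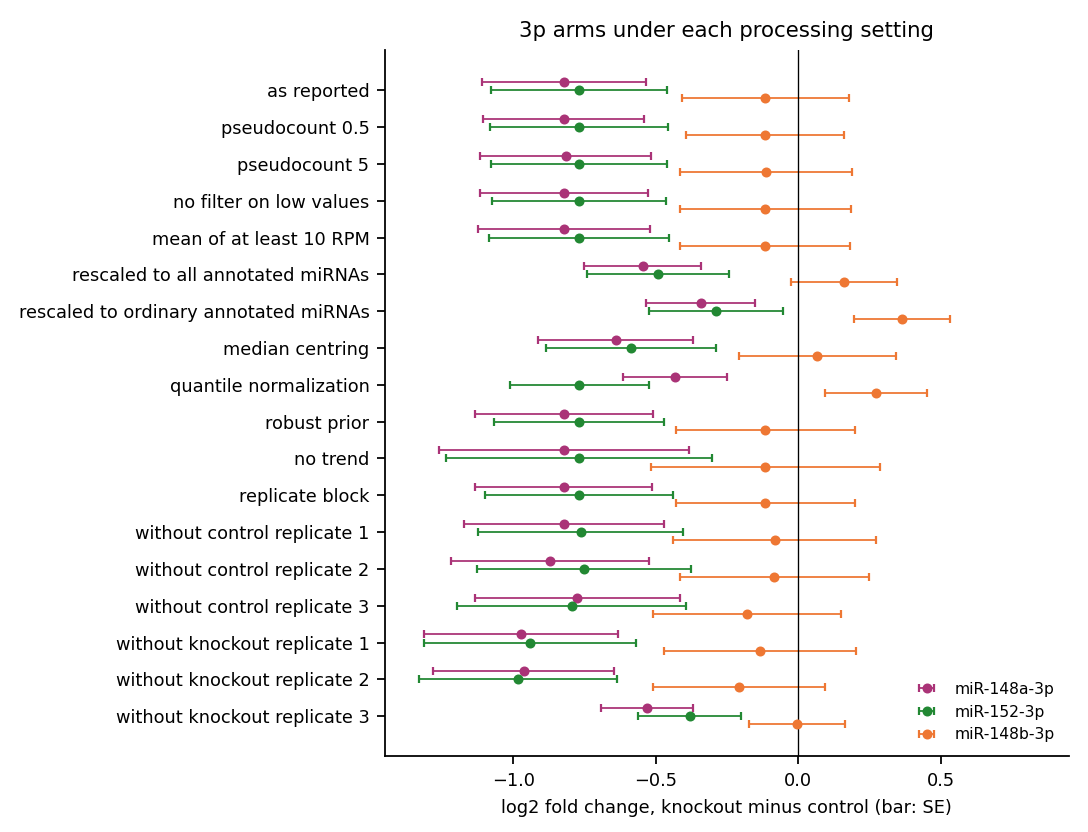
Log2 fold change (knockout minus control, bar: SE) of the 3p arms under the reported setting and each of 17 alternatives. miR-148a-3p and miR-152-3p stay to the left of 0 in every row, and miR-148b-3p lies to the right of 0 in the 4 rows that rescale, centre or quantile-normalize the libraries.

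Ratios between members of the same library do not depend on what the library is scaled to. All 3 pairs of 3p arms were compared, a choice made after their values were seen. The log2 ratio of miR-148a-3p to miR-148b-3p was 0.79, 0.69 and 1.07 in the control libraries and 0.40, 0.23 and -0.22 in the knockout libraries. Every knockout library was lower, with a difference of -0.71 between the group means (exact permutation p = 0.1, which no split of 6 libraries into groups of 3 can undercut; 0.15 when adjusted over the 3 pairs). The log2 ratio of miR-148b-3p to miR-152-3p was -4.33, -4.36 and -4.46 in the control libraries and -4.03, -3.97 and -3.17 in the knockout libraries. It was higher in every knockout library, by 0.65 between the means (exact permutation p = 0.1, adjusted 0.15). Without knockout replicate 3 these differences were -0.53 and 0.38. The third pair showed no such shift: the log2 ratio of miR-148a-3p to miR-152-3p had group means of -3.53 ± 0.14 (control) and -3.59 ± 0.18 (knockout), with overlap (exact permutation p = 0.7, adjusted 0.7). With 3 libraries a group none of these tests can pass a threshold of 0.05.

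The split of the summed 3p reads was compared with its counting error. In knockout replicate 3, miR-148b-3p took 544 of 5921 reads of the 3p arms, or 9.19% (95% Wilson interval 8.48% to 9.95%, counting error only). The highest share of any other library was 5.60% (5.21% to 6.02%), in knockout replicate 2, and the control libraries had 3.99% to 4.38%. The interval of knockout replicate 3 lay above those of the other 5 libraries. The share of miR-148a-3p averaged 7.64% ± 0.703 (control) and 7.18% ± 0.656 (knockout), with overlap. That of miR-152-3p was 88.1% ± 0.533 and 86.1% ± 2.76, with the lowest value, 82.9%, in knockout replicate 3.

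The summed level of the 3p arms was 8929, 9017 and 8586 RPM in the control libraries and 6629, 7020 and 3221 RPM in the knockout libraries. The ratio of the group means was 0.636, and 0.772 without knockout replicate 3. Of the reads of ordinary annotated miRNAs alone, the family took 1.73%, 1.92% and 1.83% in the control libraries and 1.80%, 1.79% and 1.12% in the knockout libraries. On that measure knockout replicates 1 and 2 lay within the range of the control libraries, and replicate 3 alone lay below it. Whether less vesicle RNA of the family or more RNA of other kinds lowered its RPM cannot be told apart from shares of reads, nor can fewer vesicles of a kind from less RNA in each.

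**Figure D4:**
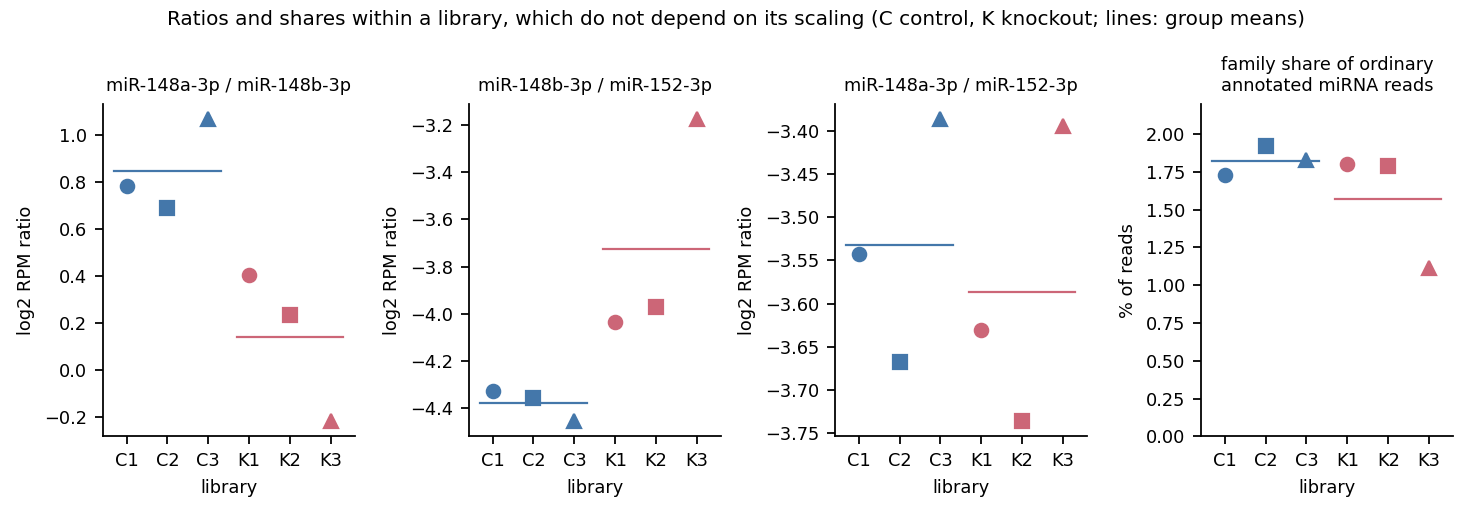
Log2 RPM ratios of the 3 pairs of 3p arms and the percent of ordinary annotated miRNA reads taken by the family, for control (C1 to C3) and knockout (K1 to K3) libraries, with group means as lines. The 2 ratios that involve miR-148b-3p separate the groups, the ratio of miR-148a-3p to miR-152-3p does not, and in the last panel only K3, at 1.12%, lies below the control range.

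All 3 hairpins used the 3p arm. The 5p arm took 0.302% of the summed arm RPM for miR-148a, 0.845% for miR-148b and 1.09% for miR-152. Over the 214 hairpins with both arms tested, the minor arm took a median of 24.3% and the 3p arm led in 119. Among them miR-148a, miR-148b and miR-152 ranked 18, 30 and 33 from the most one-sided. Hairpins with an arm unlisted or under the filter on low values were left out, so more one-sided ones may be missing from these ranks. The 5p share of miR-152 was 1.34%, 0.871% and 0.946% in the control libraries and 0.881%, 1.13% and 1.76% in the knockout libraries. The highest was that of knockout replicate 3, with 88 of its reads on the 5p arm and a 95% Wilson interval of 1.43% to 2.16%, but the groups overlapped. For miR-148a the 5p share averaged 0.280% ± 0.0965 (control) and 0.389% ± 0.341 (knockout), and for miR-148b it was 0.916% ± 0.563 and 0.760% ± 0.0832.

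The change of log2((3p RPM + 1)/(5p RPM + 1)) was -0.23 ± 0.46 (SE) for miR-152, -0.39 ± 0.63 for miR-148a and 0.05 ± 0.49 for miR-148b (limma adjusted p = 0.906, 0.902 and 0.976). None of the 3 hairpins passed the adjusted threshold, beside 0.935% of all 214 hairpins. The hairpins past it were miR-494 and miR-6957, named here after their values were seen. The unadjusted limma p was 0.622 for miR-152, 0.557 for miR-148a and 0.919 for miR-148b. With so few 5p reads the test for miR-148a and miR-148b had little to go on.

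The neighbours of each 3p arm in the order of abundance give its values a scale. Next above miR-152-3p stood miR-199b-3p, which fell by 0.95 in log2 units (limma adjusted p = 0.0456), and next below it miR-140-3p, with -0.84 (limma adjusted p = 0.0850). Around miR-148a-3p stood miR-145a-3p, which fell by 0.89 (limma adjusted p = 0.0457), and miR-7087-3p, which rose by 2.29 (limma adjusted p = 7.75e-12). The level of miR-7087-3p was 158 ± 61.8 RPM (control) and 843 ± 572 RPM (knockout), a wide spread that hardly entered this p-value. Around miR-148b-3p stood miR-199b-5p, with -0.60, and miR-125b-2-3p, with -0.74, neither past the threshold. Without any 1 of the 6 libraries the calls of miR-199b-3p and miR-145a-3p were lost, as they were after each rescaling. The call of miR-7087-3p was lost without control replicate 3. Each of these calls was also lost when limma was fitted without a mean-variance trend. Without knockout replicate 3 the log2 fold change was -0.56 for miR-199b-3p and -0.52 for miR-140-3p.

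The pattern over the 6 libraries was compared with that of the 355 entries whose mean reached 10 RPM, by Pearson's r of log2(RPM + 1), as a description. The points share their libraries and their scaling, and knockout replicate 3 carries much of the range. The entries most like miR-152-3p were miR-143-3p (r = 0.997) and miR-296-3p (0.996). The entry most like miR-148a-3p was miR-92a-3p (0.997), followed by miR-503-5p (0.995), and the entry most like miR-148b-3p was miR-532-5p (0.994). Between members r was 0.971 for miR-148a-3p and miR-152-3p, 0.846 for miR-148b-3p and miR-152-3p, and 0.710 for miR-148a-3p and miR-148b-3p.

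Matches to the shared seed were then read from reference transcripts (GENCODE M21, GRCm38), using for each gene the complete protein-coding transcript with the longest 3′ untranslated region (3′ UTR). On the sense strand the motifs were TGCACTG, which pairs with bases 2 to 8, TGCACTGA, the same followed by A, and GCACTGA, which pairs with bases 2 to 7 and is followed by A. An overlap was counted once, as the longest. Of 20901 genes with a 3′ UTR, 18.9% held at least 1 match there and 3.58% held TGCACTGA. A match is a description of the sequence, and neither repression nor binding was measured.

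Matches in genes of DNA methylation and of osteoclasts are shown with the match in capitals, because DNA methylation and osteoclasts are the settings in which the family's targets were to be described.
Dnmt1, 3′ UTR: agagccccacgTGCACTGAtgtttttaacc
Uhrf1, 3′ UTR: ttttcagagagTGCACTGActgggtgtcat
Gadd45a, 3′ UTR: ctgaaccaaatTGCACTGAagttttgaaat
Dnmt3a, coding: acatcctgtggTGCACTGAaatggaaaggg
Dnmt3b, coding: acgttttgtggTGCACTGAgctcgaaagga
Csf1, 3′ UTR: cctcggcttctTGCACTGAgctggcctcac
Dnmt1 had 1 match in its 3′ UTR of 312 bases, on the minus strand of chromosome 9 (20907491 to 20907498), beginning at base 23 after the stop codon. Of the 3′ UTRs within 20% of that length, 1.01% held TGCACTGA. Dnmt3a and Dnmt3b, the enzymes that set new methylation, had no match in the 3′ UTR and 1 TGCACTGA each in the coding sequence (chromosome 12, 3906867 to 3906874, and chromosome 2, 153684461 to 153684468, both on the plus strand). Among coding sequences of like length 6.05% and 5.87% held it. Uhrf1, which brings Dnmt1 to hemimethylated DNA, held TGCACTGA in its 3′ UTR (chromosome 17, 56323115 to 56323122, plus strand), as did Gadd45a, a stress protein linked to demethylation (chromosome 6, 67035620 to 67035627, minus strand). No match was found in the 3′ UTRs of Dnmt3l, Tet1, Tet2 or Tet3. In all, 3 of 9 genes of DNA methylation held a match in the 3′ UTR and all 3 were of the TGCACTGA kind. Of all genes, 18.9% held a match and 3.58% held TGCACTGA. The median 3′ UTR of the 9 genes, 1331 bases, was longer than the 956 bases of all genes. Per kilobase of 3′ UTR these genes held 0.112 matches, fewer than the 0.162 over all genes. The share of genes with a match was thus not above what their length gives, and it was not tested. Dnmt1 is a known target of the family and Gadd45a was also listed as one, so their matches are no independent support for targeting.

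Of 17 osteoclast genes, 4 held a match in the 3′ UTR, or 23.5%, near the 18.9% of all genes. Csf1, the growth factor that osteoclast precursors need and osteoblasts make, held 2 matches, 1 of them TGCACTGA (chromosome 3, 107742255 to 107742262, minus strand), beside 5.31% of 3′ UTRs of like length that held TGCACTGA. Mitf, a transcription factor of the lineage, held 2 shorter matches, and Ocstamp, a fusion protein, and Itgb3, an integrin subunit, held 1 each. No match was found in the 3′ UTRs of Nfatc1, Tnfrsf11a, Tnfsf11, Tnfrsf11b, Traf6, Acp5, Ctsk or Dcstamp. In coding sequences 3 of the 17 held a match, and that of Csf1r, the receptor of Csf1, was TGCACTGA, beside 6.28% of coding sequences of like length. Of 8 bone formation genes, 5 held a match in the 3′ UTR, or 62.5%, beside 18.9% of all genes. Their median 3′ UTR of 1283.5 bases was longer than the 956 bases of all genes, and the share was not tested. Runx2, the osteoblast master factor, held 2 matches, and 13.6% of 3′ UTRs of like length held at least as many. Itga5, a fibronectin receptor subunit, also held 2 (1.21%). The 3′ UTR of Sirt6 held none.

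The members differ in how far they can pair with these sites beyond the seed. At the Dnmt1, Dnmt3a and Dnmt3b sites the unbroken Watson-Crick pairing from base 2 ran over 8 bases for miR-148a-3p and 7 bases for miR-148b-3p and miR-152-3p. At the Uhrf1 site in the 3′ UTR it ran over 9 bases for miR-148a-3p and 7 bases for the other members. At the Csf1 site shown it ran over 7 bases for all of them. Other sites went the other way: at 1 Mitf site and at the Wnt10b site in the 3′ UTR it ran over 7 bases for miR-148a-3p and 8 for both other members. At 1 Itga5 site it ran over 7 bases for miR-148a-3p, 8 for miR-148b-3p and 9 for miR-152-3p. The longer runs of miR-148a-3p take in position 9, at which miR-148a-3p differs from both other members (C9U).

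Other miRNAs that are known to target DNA methyltransferases were taken as a list of 16 without the family, of which 14 were tested. Of these, 1 was lower and 0 were higher by limma beside 2.69% and 2.15% of tested entries. At an unadjusted limma p under 0.05 they numbered 7 and 0, beside 14.6% and 5.39% of tested entries. Their median was -0.56, and 12 of 14 lay below 0, beside 60.1% of all tested entries and 80.8% of abundant ordinary annotated miRNAs. For 7 of 14 the knockout libraries were lower without overlap, beside 19.3% of tested entries and 53.6% of abundant ordinary annotated miRNAs. miR-29a-3p, a repressor of Dnmt3a and Dnmt3b, fell from 3361 ± 609 to 1601 ± 559 RPM (-1.12 ± 0.29 SE, limma adjusted p = 0.00664). Its call was lost without each of the 3 control replicates, after rescaling to annotated miRNAs, and when limma was fitted without a mean-variance trend. miR-143-3p, the most abundant of the list, had 39837 ± 336 and 22459 ± 9744 RPM (-0.94, limma adjusted p = 0.0858). miR-101a-3p had -0.83 (limma adjusted p = 0.0706) and miR-342-3p -0.36 (limma adjusted p = 0.590). Without knockout replicate 3 miR-143-3p had -0.51 and miR-101a-3p -0.44.

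Of 27 miRNAs with known roles in osteoclasts, again without the family, 22 were tested. By limma 3 were lower and 0 higher (at an unadjusted p under 0.05, 9 and 0), beside 2.69% and 2.15% of tested entries past the adjusted threshold and 14.6% and 5.39% at the unadjusted p. Their median was -0.51, and 19 of 22 lay below 0, beside 60.1% of all tested entries and 80.8% of abundant ordinary annotated miRNAs. miR-503-5p, a repressor of the receptor RANK, fell by 1.50 in log2 units (limma adjusted p = 0.000329), and miR-214-3p, known to promote osteoclast formation, fell by 1.05 (limma adjusted p = 0.0118). miR-29a-3p is on this list too. The call of miR-503-5p was lost without control replicate 2 or 3, and that of miR-214-3p without any control replicate or knockout replicate 2. Both calls were also lost when limma was fitted without a mean-variance trend. The call of miR-214-3p was also lost after rescaling to all annotated miRNAs (-0.78, limma adjusted p = 0.109) and to ordinary ones (-0.57, limma adjusted p = 0.253). Without knockout replicate 3 miR-214-3p had -0.63 and miR-21a-5p -0.074. The abundant members miR-26a-5p (-0.78), miR-21a-5p (-0.24), miR-125a-5p (-0.80) and miR-31-5p (-0.85) did not pass, and miR-21a-5p stood at 0.24 once the libraries were scaled to ordinary annotated miRNAs. The medians of both lists lay near the -0.60 of ordinary annotated miRNAs, as did the values of miR-148a-3p and miR-152-3p.

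**Figure D5:**
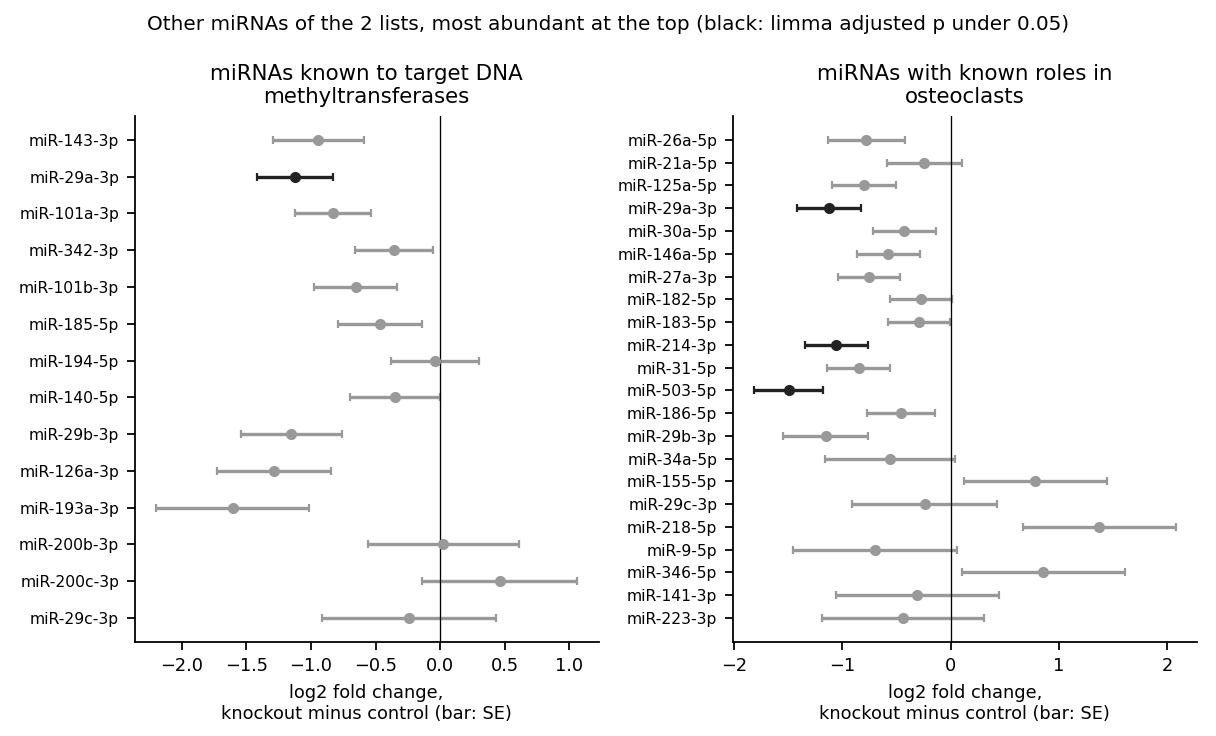
Log2 fold change (knockout minus control, bar: SE) of the tested members of both lists, the family left out, ordered by abundance from the top, with entries past the limma threshold in black. Only miR-29a-3p, miR-214-3p and miR-503-5p are in black, and 12 of 14 and 19 of 22 entries lie below 0. Beside these stand 60.1% of all tested entries and 80.8% of abundant ordinary annotated miRNAs below 0.

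The summed levels of cell type markers are given beside the family's values, without a test. The counts of markers below 0 stand beside 60.1% of all tested entries and 80.8% of abundant ordinary annotated miRNAs. The listed mesenchymal markers, such as miR-199a-5p, miR-143-3p and miR-214-3p, summed to 177322 to 204629 RPM in the control and 74874 to 134469 RPM in the knockout libraries, with 6 of 7 tested members below 0. Blood cell markers summed to 158 to 209 and 61.5 to 124 RPM (5 of 6 below 0) and endothelial markers to 47.9 to 63.6 and 15.2 to 26.7 RPM (2 of 2 below 0). Epithelial markers summed to 21.4 to 25.2 and 15.8 to 29.2 RPM, with 2 of 4 below 0. Muscle markers summed to 71.0 to 85.1 and 40.3 to 57.6 RPM (1 of 1 below 0). Neural markers summed to 17.2 to 34.0 and 4.35 to 23.7 RPM (2 of 2 below 0). Liver markers summed to 337 to 359 and 166 to 327 RPM (3 of 3 below 0). miR-199a-3p, miR-486a-5p and miR-124-3p were not listed under those names, and miR-223-3p, the defining myeloid marker, had 2.21 ± 2.67 and 0.979 ± 0.878 RPM. The part of these cells in the family's values was not tested.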

How the data were processed

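Small RNA from 6 vesicle libraries (3 control, 3 knockout) was compared in 1 table of RPM values that the authors deposited. Each deposited RPM column sums to 1000000. The submitters' processing notes name fastp and edgeR without roles. Neither aligner nor annotation release nor build is named there (not given in the sources used here). Within a column all RPM values were multiples of a step, 0.5 of the smallest value above 0 (tolerance 0.001 read). That step was read as 1 read, although no entry stood at 1 read, and the count tests planned on such reads were not run.

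limma 3.58.1 (R 4.3.3) was fitted to log2(RPM + 1) with a mean-variance trend over 1114 entries with at least 1 RPM in at least 3 libraries, 2-sided, with Benjamini-Hochberg adjusted p under 0.05. The whole weight fell on the trend, so an entry's own spread hardly entered its SE. Arm ratios were fitted with the same settings over 214 hairpins, and there a hairpin's own spread did enter its SE. Single values used exact 2-sided permutation tests (SciPy 1.17.1). The tests were tried on simulated data. Ordinary annotated miRNAs leave out 9 fragment-like entries.

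The family, lists, tests and the rule for other named entries (neighbours in abundance, most alike in pattern, most abundant or called members of 2 lists) were chosen with earlier results of these data known, and a selection is printed. Replicate numbers are shared between groups, and the labels do not say that they pair samples. Some target genes are not reported here.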

Additional observations from a re-analysis of the deposited data

How the results depend on the processing

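Of 17 alternatives to the limma fit, the number of family entries lower changed in 1, the limit to a mean of at least 10 RPM (1, miR-148a-3p), and the number higher in 0. The counts over all entries, 24 higher and 30 lower, moved more. Higher entries numbered 38 after rescaling to ordinary annotated miRNAs and 0 with no trend. Lower entries numbered 15 with a pseudocount of 0.5, 15 with no filter, 71 with a mean of 10 RPM or more, 5 and 2 after rescaling to all and to ordinary annotated miRNAs, 8 with median centring, 16 with quantile normalization, 17 with a robust prior and 0 with no trend. With a library left out, 0 to 26 were higher and 0 to 18 lower (0 and 0 without control replicate 3). Lower members of the methyltransferase list numbered 2 with a pseudocount of 5 or a robust prior, 5 with a mean of 10 RPM or more and 0 after either rescaling or with no trend (0 to 1 with a library left out). Lower members of the osteoclast list numbered 6, 1, 1 and 0 with a mean of 10 RPM or more, after the rescalings and with no trend (0 to 3 with a library left out). Hairpins with changed arm use numbered 0 with a pseudocount of 0.5 or no trend, 6 with a pseudocount of 5 and 1 with a robust prior, and 0 to 0 with a library left out.

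Same-numbered control and knockout libraries deviated together with r of 0.048, 0.138 and 0.073 over 355 entries. Libraries of unlike number had r from -0.144 to 0.072. These values do not decide whether the numbers pair samples, and the reported fit did not use them as pairs. With the replicate block 19 entries were higher and 11 lower, 0 hairpins changed arm use, and miR-148a-3p had a limma adjusted p of 0.119.

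Some signs turned. miR-148b-3p was 0.16 and 0.36 after rescaling to all and to ordinary annotated miRNAs, 0.067 with median centring and 0.27 with quantile normalization. miR-148b-5p was 0.024, 0.17 and 0.016 under the first 3 of these, and with a library left out -0.54 to 0.21. miR-148a-5p ranged from -0.80 to 0.10 with a library left out. miR-21a-5p was 0.036 and 0.24 after the rescalings, and miR-342-3p 0.12 after the second and 0.14 with quantile normalization; miR-532-5p was 0.00042 after the second. The arm ratio of miR-148b was -0.0027 with a pseudocount of 5 and -0.30 to 0.46 with a library left out, that of miR-148a -1.06 to 0.069 and that of miR-152 -0.46 to 0.044. The log2 ratio of miR-148a-3p to miR-152-3p changed by -0.15 to 0.020 with a library left out, and lay above 0 without knockout replicate 2 or control replicate 3. The ratio of the summed 3p arms was 0.557 to 0.772 with a library left out, and 0.749 and 0.858 after the rescalings. The cause of these shifts was not tested. The count tests planned on recovered reads were not run.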

Other observations

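The seed of the family also reads into a neighbouring family. miR-130a-3p, miR-130b-3p, miR-301a-3p and miR-6389 hold bases 3 to 8 of the miR-148 seed at their own bases 2 to 7, and their mean levels were 28.5, 1.51, 1.75 and 0.499 RPM. miR-1960, which shares bases 2 to 7, had 0.188 RPM. Next to miR-152-3p at 6338 RPM over all 6 libraries, these were rare, so miR-152-3p supplied most of the listed reads with this seed or its shifted form.

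Matches to the seed were also counted in a list of metabolism and growth genes, most of them chosen as known targets of the family and so no independent support for targeting. The list also holds Sirt6, the deleted gene, which was the 1 gene without a match. Of the 7 genes, 6 held a match in the 3′ UTR, beside 18.9% of all genes, though their median 3′ UTR of 3156 bases was longer than the 956 bases of all genes. Bcl2l11, which encodes a protein that promotes apoptosis, held 4 matches, and 0.284% of 3′ UTRs of like length held as many. Abca1, a cholesterol exporter, held 3 (1.80%).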
